A study of Mus musculus with 14 samples.

Results

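Genes for the subunits of the oxidative phosphorylation system were followed in the hypothalamus of fed and fasted mice. They were chosen by the symbol in the platform annotation: a symbol beginning with Nduf, Uqcr, Cox4 to Cox8 or Atp5, or the names Sdha, Sdhb, Sdhc, Sdhd and Cyc1. The rule took 88 of the 17097 genes measured. Of these, 81 are subunits (35 of complex I, 4 of complex II, 8 of complex III, 17 of complex IV and 17 of complex V) and 7 are Ndufaf assembly factors, which served as the comparison set. Each gene was represented by the probe set that named only it and had the highest mean over all 14 arrays. No gene was removed for a low level. The choice used no difference between groups.

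Hypothalamic RNA of mice 12 weeks old, on a mixed background of C57Bl/6J, FVB/N and 129, was hybridised to 14 Affymetrix HT MG-430 PM arrays. Control mice were fed (n = 4) or fasted for 16 h (n = 3), and mice with a POMC-specific knockout of Mfn1 (POMCMfn1KO) were likewise fed (n = 4) or fasted for 16 h (n = 3). Mfn1 encodes mitofusin 1, which fuses mitochondrial outer membranes, and POMC neurons are a small population of the hypothalamus that express pro-opiomelanocortin. The labels do not say how the deletion was driven or whether an array is a single mouse, and every p-value therefore reflects only the variation among these samples, which may be technical. Precision is limited by how few arrays there are.

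The respiratory chain passes electrons from NADH (complex I) or succinate (complex II) through ubiquinone to complex III, then through cytochrome c to complex IV, which reduces oxygen. Complexes I, III and IV pump protons, and complex V, the ATP synthase, uses the gradient to make ATP. Neurons depend on this pathway for most of their ATP. Most subunits are encoded in the nucleus, as are all the members here, and complex II alone has no mitochondrially encoded subunit.

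RNA quality, read as the 3' level minus the 5' level of a control transcript on the log2 scale, was 0.77 to 0.94 for Actb and -0.03 to 0.12 for Gapdh. In this bulk tissue Mfn1 differed between knockout and control by 0.01 ± 0.03 (standard error, SE) on the log2 scale (adjusted p = 0.999, limma), so its probe set does not check the genotype labels. Markers of other cell types moved with fasting. The summed log2 level of the 6 astrocyte markers was 51.85 to 52.61 in fed and 52.72 to 54.56 in fasted arrays, that of the 6 microglia markers 41.72 to 43.3 and 38.42 to 41.71. Counts of markers in this paragraph are those at an adjusted p under 0.05 for fasted minus fed, averaged over the genotypes (limma). Over all genes 10.0% passed, 5.14% higher and 4.90% lower. Of the 6 astrocyte markers 3 rose and 1 fell, and of the 6 microglia markers 4 fell. The 7 pericyte and smooth muscle markers summed to 49.12 to 50.63 in fed and 48.06 to 49.08 in fasted arrays, and 3 fell. The 6 oligodendrocyte markers summed to 60.04 to 61.26 and 57.87 to 60.26, with 1 higher and 2 lower, and the 6 cortex and hippocampus markers to 29.22 to 34.29 and 28.93 to 29.3, with 1 lower. The 7 neuron markers summed to 82.08 to 82.48 in fed and 82.05 to 82.49 in fasted arrays. Of 13 hypothalamic markers measured, 3 were under the highest mean of the non-target control probe sets, 5.28, as were 5 of the 6 cortex and hippocampus markers. The 13 hypothalamic markers summed to 96.21 to 105.2 in fed and 103.4 to 105.8 in fasted arrays, and 1 rose. Their lowest sum was that of control fed 1. The sample numbers in the titles also split with feeding: all 6 fasted arrays and 1 fed array, knockout fed 1, carry the low numbers, and the other 7 fed arrays the high ones. Feeding state and number series can therefore hardly be told apart.

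Most of the pathway lay close to its fed level in the arrays of fasted mice. Averaged over the genotypes, 2 of the 81 subunits, Sdhc and Sdhd of complex II, passed an adjusted p of 0.05 (limma, Benjamini-Hochberg over all genes), both higher in fasted mice, and none passed in the lower direction. Over all genes 10.0% passed, 5.14% higher and 4.90% lower. Sdhc and Sdhd encode the membrane anchor of succinate dehydrogenase. The whole 95% confidence interval lay within 0.25 on the log2 scale of no change for 76 of 81 subunits, and for 61.9% of all genes. Of the subunits, 62 had a difference above 0, against 50.9% of all genes. Their median difference was 0.025, and that of all genes 0.0025. An unadjusted p under 0.05 was reached by 13 of 81 subunits, all of them higher. Of all 17097 genes 26.0% reached it in either direction, 2251 higher and 2197 lower. Because subunits share arrays and vary together, none of these shares was tested.

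The arrays measured these genes with little spread. The median SD within groups was 0.044 over the subunits and 0.119 over all genes, on the log2 scale. It was 0.043 in complex I, 0.048 in complex II, 0.051 in complex III, 0.050 in complex IV and 0.042 in complex V, and 0.072 in the Ndufaf genes. The mean of 75 subunits lay at or above the background mark of 5.28, and of those 2 passed (2.67%), against 14.7% of the 10149 genes with such a mean. The other 6 (Cox4i2, Cox7a1, Cox7b2, Cox8b, Cox8c and Ndufa4l2) lay below it, and their median SD within groups was 0.149. A small difference in those 6 cannot be read from these arrays.

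**Figure D1:**
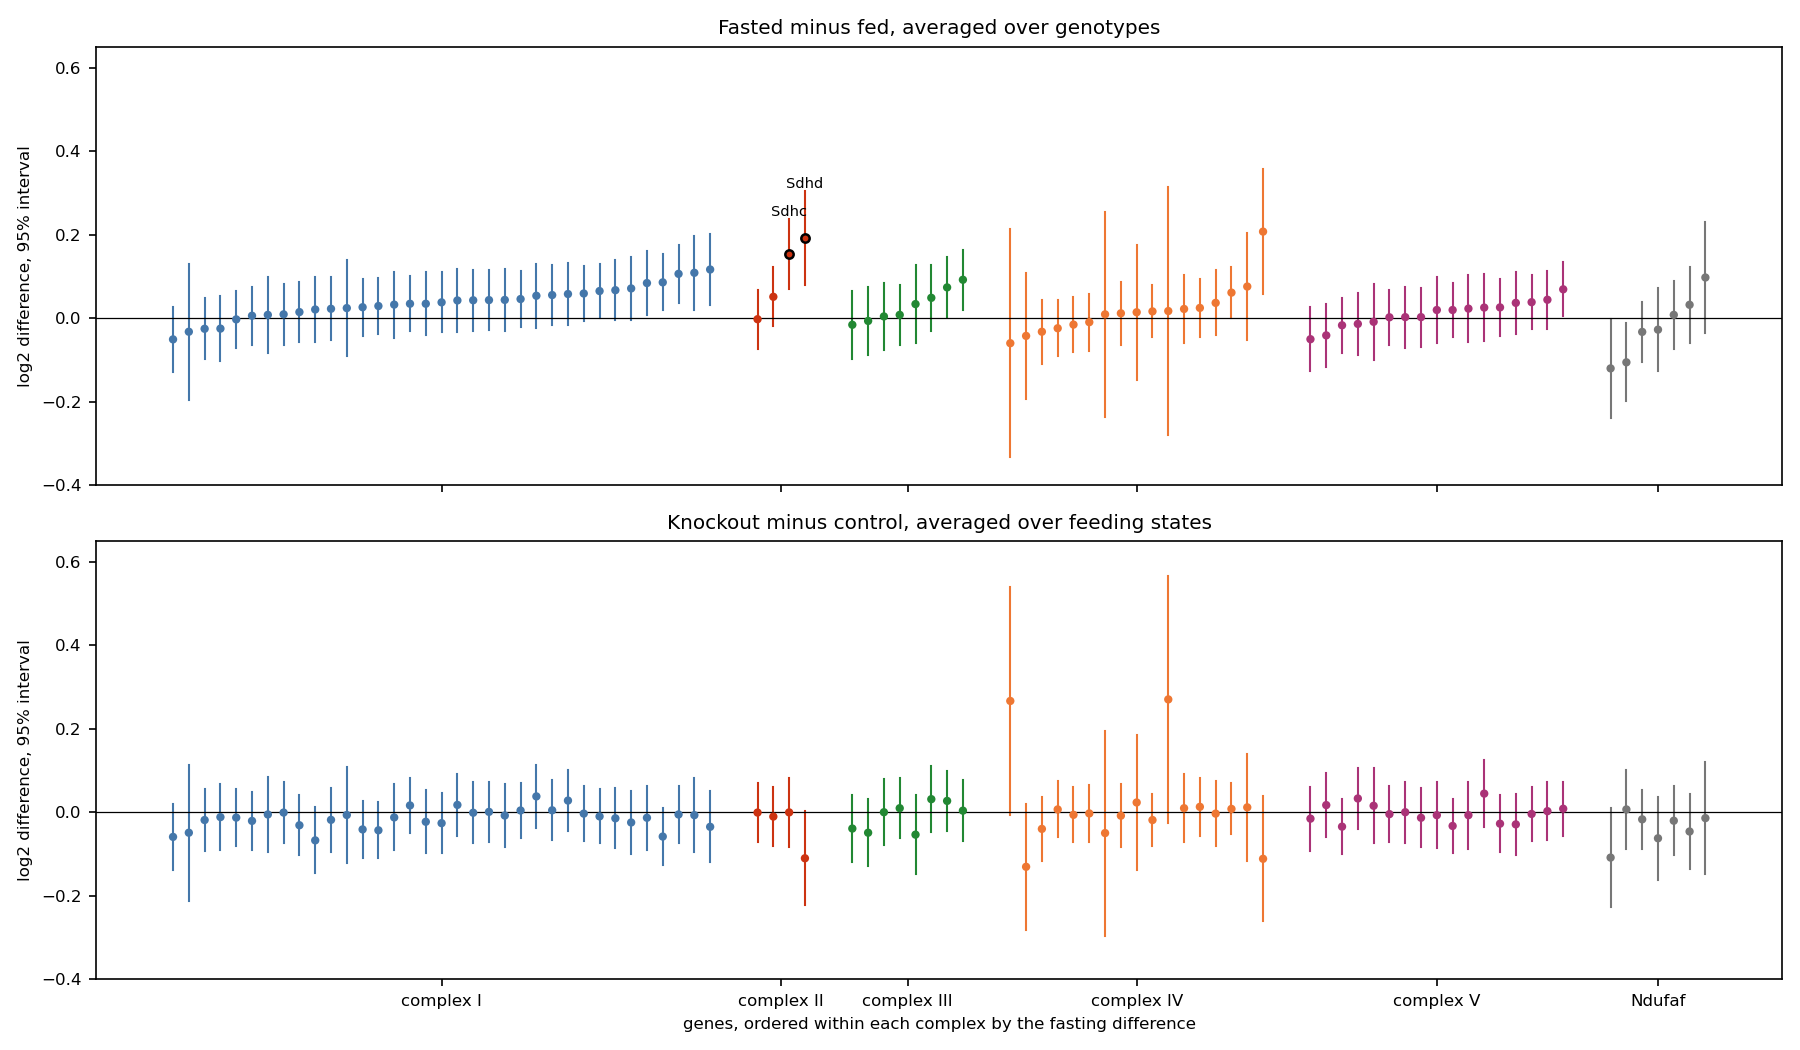
Log2 difference with its 95% confidence interval (vertical axis) of each of the 88 genes, grouped by complex and ordered by the fasting difference (horizontal axis). The upper panel gives fasted minus fed, the lower knockout minus control. Ringed points passed an adjusted p of 0.05: Sdhc at 0.15 and Sdhd at 0.19, both in the upper panel.

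Complex II had the highest median fasting difference of the 5 complexes, 0.10 over 4 genes, as its membrane anchor rose and its catalytic subunits did not pass the test. This enzyme also belongs to the tricarboxylic acid cycle, where it oxidises succinate to fumarate. Sdhc lay at 9.84, 9.94, 9.81 and 9.78 in control fed and at 9.94, 9.99 and 10.01 in control fasted arrays. In knockout mice it lay at 9.86, 9.88, 9.80 and 9.76 fed and at 10.05, 10.01 and 9.93 fasted. The feeding states touch only through control fed 2, at 9.94, and the other 7 fed arrays were below all 6 fasted ones. The averaged difference was 0.15 ± 0.04 (95% interval 0.07 to 0.24, adjusted p = 0.0240, limma), an 11.3% higher level.

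Sdhd lay at 6.34, 6.52, 6.51 and 6.54 in control fed and at 6.68, 6.75 and 6.71 in control fasted arrays. In knockout mice it lay at 6.44, 6.48, 6.28 and 6.44 fed and at 6.71, 6.53 and 6.44 fasted. Control groups did not overlap, while knockout fasted 3 lay at the level of knockout fed 1 and 4. The averaged difference was 0.19 ± 0.05 (95% interval 0.08 to 0.31, adjusted p = 0.0335, limma), a 14.3% higher level. Its probe set, the only 1 for this gene, is of the x_at kind, which can share probes with other transcripts, so Sdhd is uncertain.

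The catalytic subunits were steadier. Sdha, the flavoprotein that binds succinate, had a lowest, median and highest level of 11.58, 11.66 and 11.75 over the 8 fed arrays and of 11.62, 11.66 and 11.71 over the 6 fasted ones. Fed and fasted ranges of Sdha overlapped fully, and its difference was 0.00 ± 0.03 (95% interval -0.07 to 0.07, adjusted p = 0.974, limma). Sdhb, the iron-sulfur subunit, lay at 11.18, 11.23 and 11.31 fed and at 11.24, 11.28 and 11.32 fasted. Its difference was 0.05 ± 0.03 (95% interval -0.02 to 0.12, adjusted p = 0.358, limma). A second probe set of Sdha, at a mean of 11.53, gave -0.02 ± 0.03.

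Both calls lay near the threshold. Sdhc no longer passed without control fasted 3 (adjusted p = 0.0582, limma), knockout fasted 1 (0.0573) or knockout fasted 2 (0.0588). Sdhd no longer passed without control fasted 1 (0.0560), control fasted 2 (0.0651), control fasted 3 (0.0648), control fed 1 (0.0534), knockout fasted 1 (0.0753), knockout fasted 2 (0.0625) or knockout fed 3 (0.0636). Once the number series was added as a covariate, the differences were 0.11 for Sdhc (adjusted p = 0.693) and 0.16 for Sdhd (adjusted p = 0.686), in a fit where 15 of 17097 genes passed. Adding the 3' to 5' difference as a covariate also ended both calls (adjusted p = 0.0627 for Sdhc and 0.0745 for Sdhd, limma). So did leaving out control fed 1 and knockout fed 4, chosen after seeing the data (0.0599 and 0.0661). A trended and robust prior ended that of Sdhd (0.0845). Only the knockout fed group held both number series, so that covariate rested on knockout fed 1 against the other arrays of its group. It is thus no general estimate of a difference between the series. The only fed array of the low series, knockout fed 1, lay at 9.86 for Sdhc and 6.44 for Sdhd, and the 3 knockout fasted arrays at 9.93 to 10.05 and 6.44 to 6.71. As bulk tissue was measured, fewer cells of a type and less RNA per cell cannot be told apart here or in any later comparison. The part of the marker shifts given above in these differences was not tested.

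**Figure D2:**
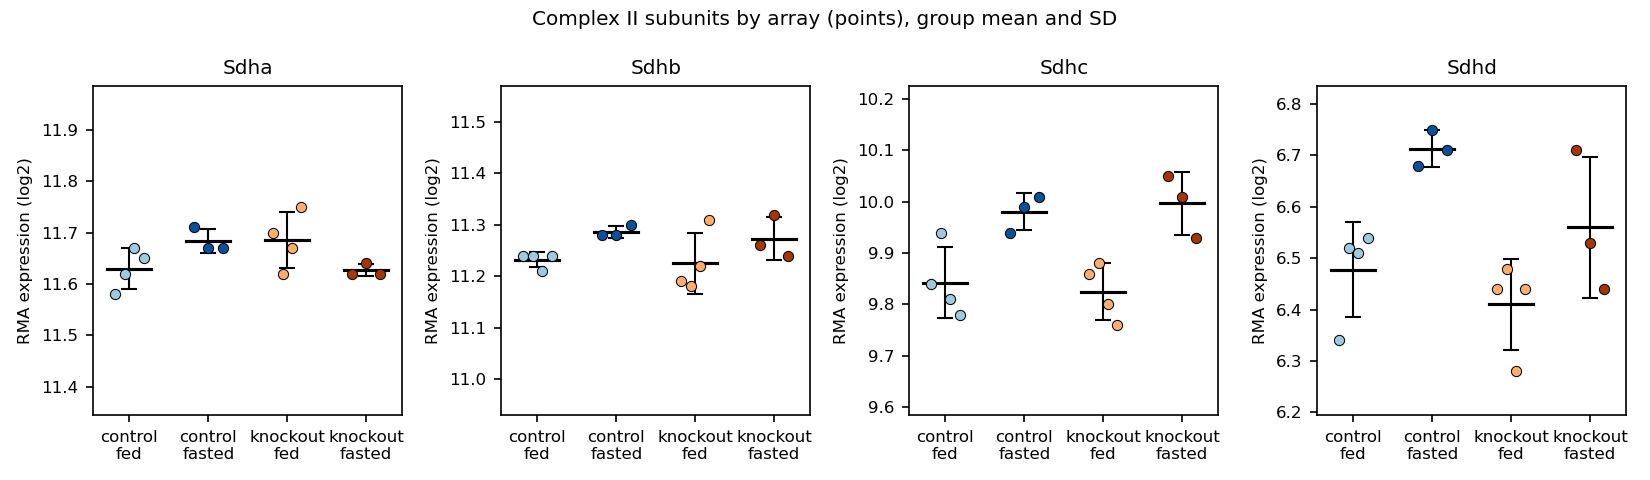
RMA expression on the log2 scale (vertical axis) of the 4 complex II genes in each array (points), by group (horizontal axis), with the group mean and SD. Group means of Sdhc and Sdhd are higher in fasted than in fed mice of both genotypes, though single fed and fasted arrays overlap for all 4 genes. Each panel covers the same span of log2 units but starts at its own level.

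The promoters of 3 complex II genes are shown because 2 of the 4 genes passed and 2 did not. They are the 120 bases upstream of the start in gene sense, from RefSeq (GRCm38.p6), and Sdhc had no entry used here. Capitals mark matches to the core of the NRF1 motif, CGCANGCG, bound by nuclear respiratory factor 1, and to the ETS motif CCGGAAG on either strand, bound by GABPA. Sdha lies at chr13:74350241-74350360 on the minus strand, Sdhb at chr4:140961151-140961270 on the plus strand and Sdhd at chr9:50603850-50603969 on the minus strand.
Sdha: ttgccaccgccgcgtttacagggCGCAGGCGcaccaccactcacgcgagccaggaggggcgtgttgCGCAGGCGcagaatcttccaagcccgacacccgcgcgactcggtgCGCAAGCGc
Sdhb: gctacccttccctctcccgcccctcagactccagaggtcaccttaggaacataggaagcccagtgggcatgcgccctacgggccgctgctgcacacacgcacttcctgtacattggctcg
Sdhd: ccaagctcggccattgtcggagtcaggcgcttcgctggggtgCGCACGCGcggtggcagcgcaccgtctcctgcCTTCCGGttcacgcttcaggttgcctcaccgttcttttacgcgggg

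Sdha held 3 NRF1 matches in this stretch. Sdhd held 1 NRF1 and 1 ETS match, and Sdhb had none of the letters searched. In the longer windows counted further on, Sdhb also held an ETS match and Sdhd an estrogen-related receptor match, so the contrast between the genes depends on the stretch shown.

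Complex I, the entry point for NADH and the largest complex, shifted slightly upward and no member passed. Its 35 genes had a median fasting difference of 0.038, with a range of -0.05 to 0.12, and 30 of 35 were above 0. All 35 had a 95% interval within 0.25 of no change. Of the 35, 6 reached an unadjusted p under 0.05, all higher. Of all 17097 genes 26.0% did so in either direction, 2251 of them higher.

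The lowest p in complex I was that of Ndufb5, an accessory subunit of the membrane arm. It lay at 11.49, 11.52, 11.54 and 11.50 in control fed and at 11.67, 11.62 and 11.62 in control fasted arrays. In knockout mice it lay at 11.53, 11.52, 11.48 and 11.57 fed and at 11.58, 11.67 and 11.59 fasted. All 6 fasted arrays were above all 8 fed ones, by as little as 0.01 on the log2 scale. The difference was 0.11 ± 0.03 (adjusted p = 0.0523, limma), just outside the threshold. A second probe set of Ndufb5, at a mean of 11.45, gave a smaller difference, 0.055 ± 0.036. In a limma fit of every probe set its adjusted p was 0.387, and its feeding states overlapped.

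Ndufs4, an accessory subunit whose loss in mice causes a Leigh-like brain disease, had a lowest, median and highest level of 9.62, 9.68 and 9.82 fed and of 9.75, 9.82 and 9.86 fasted. Its difference was 0.12 ± 0.04 (adjusted p = 0.0784, limma). A second Ndufs4 probe set above background, at a mean of 7.48, gave 0.01 ± 0.07. Ndufb8, a membrane-arm subunit often used as a marker of assembled complex I, differed by 0.09 ± 0.03 (adjusted p = 0.0994, limma). Ndufa9, an accessory subunit near the ubiquinone site, lay at 10.51, 10.57 and 10.59 fed and at 10.61, 10.63 and 10.65 fasted. Its 2 feeding states did not overlap, yet the difference of 0.07 ± 0.03 did not pass (adjusted p = 0.192, limma). Groups that do not overlap were found, fasted above fed, for 3 of 81 subunits (Ndufb5, Ndufa9 and Cox4i1), against 1.92% of all genes, and fasted below fed for none, against 1.49%.

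Ndufa4 was at 12.10, 12.16 and 12.22 fed and at 12.12, 12.16 and 12.19 fasted, a difference of 0.01 ± 0.03 (adjusted p = 0.936, limma). The rule counts it with complex I by its symbol, although its protein is now placed with complex IV. Its paralog Ndufa4l2, known as a hypoxia-inducible gene, had a mean of 4.75, under the background mark, and a difference of -0.03 ± 0.08. The gene named Ndufs5-ps in the annotation is a transcribed pseudogene in RefSeq. Whether its probe sets read the pseudogene or its parent gene was not tested.

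In complex III, which passes electrons from ubiquinol to cytochrome c, the 8 genes had a median fasting difference of 0.021, and 6 of 8 were above 0. None passed. Uqcrfs1, the Rieske iron-sulfur protein, lay at 10.73, 10.79 and 10.86 fed and at 10.83, 10.89 and 10.90 fasted, a difference of 0.09 ± 0.03 (adjusted p = 0.100, limma). Uqcr10, a small accessory subunit, differed by 0.07 ± 0.03 (adjusted p = 0.183, limma), and Uqcrc1, a core subunit, by 0.05 ± 0.04 (adjusted p = 0.436, limma). Cyc1, the cytochrome c1 subunit, lay at 11.25, 11.29 and 11.38 fed and at 11.27, 11.30 and 11.36 fasted. Its difference was 0.01 ± 0.03, with a 95% interval of -0.06 to 0.08. Uqcrq had the highest SD of the complex over 14 arrays, 0.073, and a difference of 0.03 ± 0.04.

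Complex IV reduces oxygen to water, and several of its subunits exist as tissue isoforms. Its 17 genes had a median fasting difference of 0.014, 11 of 17 were above 0, and none passed. Cox4i1, the common isoform of the subunit that binds ATP, lay at 12.64, 12.64, 12.61 and 12.62 in control fed and at 12.69, 12.70 and 12.69 in control fasted arrays. In knockout mice it lay at 12.62, 12.66, 12.64 and 12.64 fed and at 12.69, 12.71 and 12.69 fasted. The 6 fasted arrays were above all 8 fed ones, with a difference of 0.06 ± 0.03 (adjusted p = 0.191, limma). The alternative isoform Cox4i2 had a mean of 4.17, under the background mark.

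By their chosen probe sets the other common isoforms named here had smaller fasting differences than Cox4i1. Cox6a1 lay between 12.92 and 13.02 over all arrays, with a difference of -0.02 ± 0.03. Cox6b1, the subunit that bridges the complex IV dimer, differed by 0.02 ± 0.03, and Cox7a2 by -0.01 ± 0.03. Cox8a differed by 0.01 ± 0.03 and Cox7a2l, which helps join complexes III and IV, by 0.02 ± 0.04. The chosen sets of both are of the x_at kind. Further sets above background gave 0.08 ± 0.05 for Cox6a1, and 0.11 ± 0.05 and 0.08 ± 0.05 for Cox7a2l. Those of Cox6b1, Cox7a2 and Cox8a gave 0.03 ± 0.03 each. None of these further sets passed. How steady Cox6a1 and Cox7a2l look depends on the probe set. The isoforms known from muscle were mostly under background: Cox7a1 had a mean of 5.23 and Cox8b of 4.40. Cox6a2, also a muscle isoform, was measured well above it, with a mean of 8.67 and a difference of -0.04 ± 0.07. Skeletal muscle markers were under the background mark in 5 of 6 cases, and their summed level was 25.74 to 26.44 in fed and 25.95 to 26.36 in fasted arrays.

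Cox7b2, an isoform known from testis, had the largest difference of complex IV, 0.21 ± 0.07 (adjusted p = 0.0755, limma), at a mean of 4.54. In control mice it lay at 4.25, 4.46, 4.71 and 4.41 fed and at 4.75, 4.81 and 4.74 fasted. In knockout mice it lay at 4.33, 4.37, 4.56 and 4.53 fed and at 4.70, 4.46 and 4.50 fasted. All of these values lie under the background mark of 5.28, and are not above background signal.

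Complex V makes ATP from the proton gradient, and its 17 genes had a range of fasting differences of only -0.05 to 0.07, with no call, a median of 0.020 and 12 of 17 above 0. All 17 had a 95% interval within 0.25 of no change. Atp5j, the coupling factor 6 of the stalk, lay at 11.93, 11.99 and 12.02 fed and at 12.02, 12.06 and 12.08 fasted, a difference of 0.07 ± 0.03 (adjusted p = 0.162, limma). Atp5o, the subunit that confers oligomycin sensitivity, differed by 0.04 ± 0.03 (adjusted p = 0.425, limma). Atp5mpl, a small membrane subunit, differed by -0.05 ± 0.04 (adjusted p = 0.406, limma). Atp5a1, the alpha subunit of the catalytic head, had the highest SD of the complex over 14 arrays, 0.060, and differed by -0.01 ± 0.04.

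The Ndufaf factors assemble complex I and are not part of the finished enzyme. Their 7 genes had a median fasting difference of -0.028, and 3 of 7 were above 0. None passed, and 2 of 7 reached an unadjusted p under 0.05, both lower. Of all 17097 genes 26.0% did so in either direction, 2197 of them lower. Ndufaf4 lay at 9.31, 9.40 and 9.53 fed and at 9.19, 9.30 and 9.37 fasted, a difference of -0.11 ± 0.04 (adjusted p = 0.142, limma). Ndufaf2 lay at 8.36, 8.54 and 8.60 fed and at 8.16, 8.45 and 8.58 fasted, a difference of -0.12 ± 0.05 (adjusted p = 0.185, limma). Ndufaf6 went the other way, with 0.10 ± 0.06 (adjusted p = 0.351, limma). The complex I subunits had a median of 0.038 in the same contrast, and whether the 2 sets differ was not tested.

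A score for each complex, the mean over its genes of the log2 value centred on the 14-array mean, showed the same small shifts array by array. Complex II scores lay between -0.09 and -0.003 in fed and between -0.03 and 0.09 in fasted arrays, and only knockout fasted 3 fell into the fed range. In complex I the control fasted arrays, at 0.015 to 0.040, were above the control fed ones, at -0.033 to 0.009. The knockout groups overlapped, since knockout fed 4 was at 0.011 while its 3 group mates were at -0.035 to -0.029. Complex IV had its lowest and highest scores in 1 group: knockout fed 1 at -0.11 and knockout fed 4 at 0.11. That score includes genes under the background mark. Over the 12 complex IV genes at or above the mark, the same arrays were at -0.072 and 0.053. Complex V stayed between -0.014 and 0.019 in all 14 arrays. The markers of cortex and hippocampus, regions outside the hypothalamus, were highest in control fed 1 and knockout fed 4, at scores of 0.71 and 0.34. Hypothalamic markers were lowest in control fed 1, at a score of -0.54, against -0.16 to 0.19 in the other arrays. The part of these tissue differences in the scores of the complexes was not tested.

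**Figure D3:**
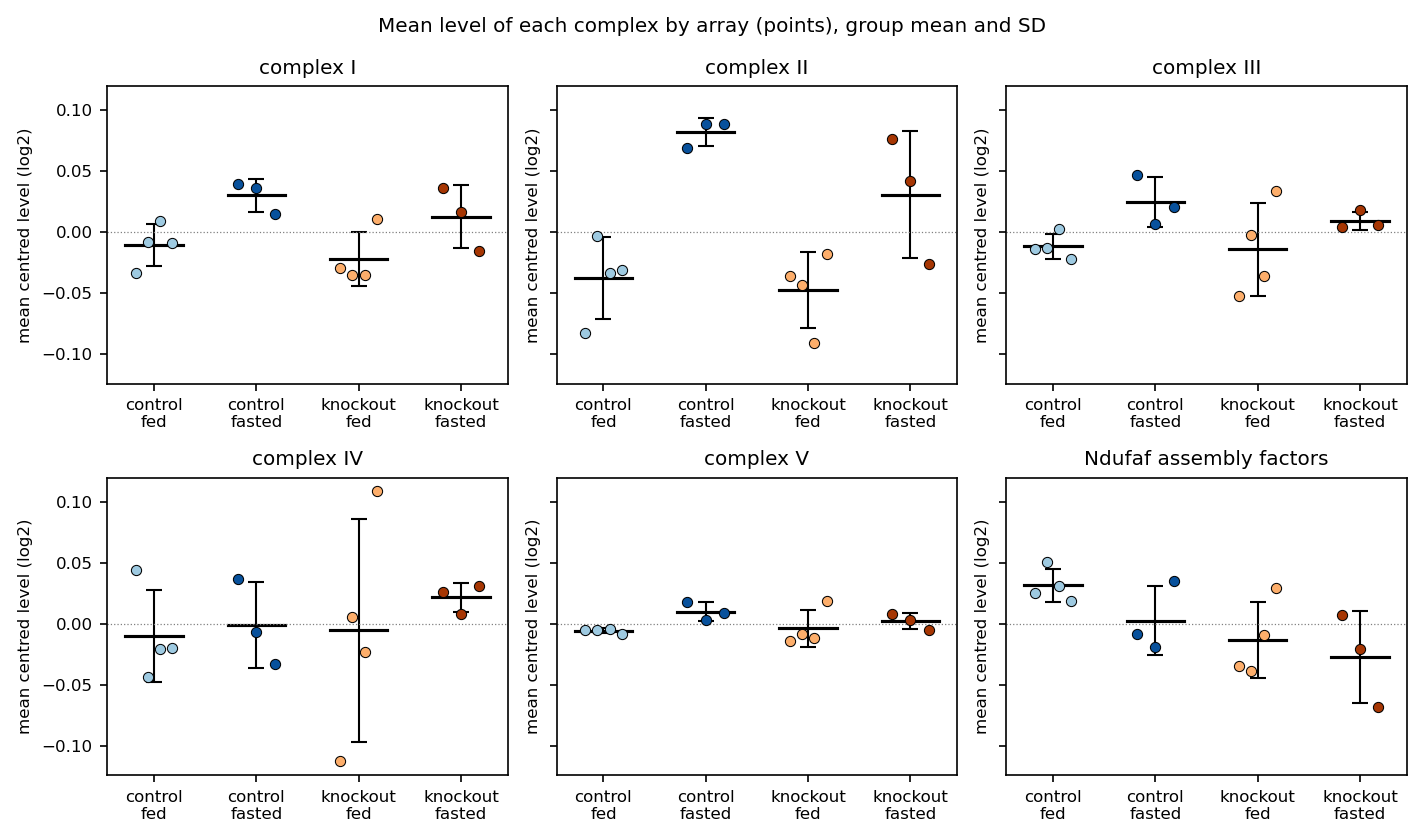
Mean centred log2 level of the genes of each complex and of the Ndufaf factors (vertical axis) in each array (points), by group (horizontal axis), with the group mean and SD. Complex II separates fed from fasted arrays except for knockout fasted 3. Knockout fed spans -0.11 to 0.11 in complex IV, whose score includes genes under the background mark.

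Within single genotypes no subunit passed. In control mice 2.76% of all genes passed (472) and 0 of 81 subunits (limma), and 5 subunits reached an unadjusted p under 0.05, against 17.5% of all genes. The median difference was 0.024. Control fasted arrays were all above control fed ones for 18 of 81 subunits, 11 of them in complex I, against 7.94% of all genes. Fasted arrays were all below fed ones for none, against 8.57% of all genes. In knockout mice 0.696% of all genes passed (119) and 0 of 81 subunits (limma), with 3 at an unadjusted p under 0.05, against 16.5% of all genes, and a median difference of 0.028. Here 8 of 81 subunits did not overlap in the higher direction, against 7.37%, and none in the lower, against 5.64%.

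Sdhc differed by 0.14 ± 0.06 in control mice (adjusted p = 0.209) and by 0.17 ± 0.06 in knockout mice (adjusted p = 0.148, limma). Sdhd differed by 0.24 ± 0.07 in control mice (adjusted p = 0.115) and by 0.15 ± 0.07 in knockout mice (adjusted p = 0.334, limma). The difference between those responses was 0.03 for Sdhc, with a 95% interval of -0.13 to 0.20, and -0.09 for Sdhd, with an interval of -0.31 to 0.14. Both intervals include 0, and each is wider than the responses themselves. Over all subunits the fasting response of knockout minus that of control mice passed for 0 of 81 and for 0% of all genes (limma). An unadjusted p under 0.05 was reached by 1 subunit, Cox8c at 0.43 ± 0.15, and by 654 genes (3.83%). Cox8c, an isoform known from testis, had a mean of 4.87, under background.

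Most subunits lay near their control level in the arrays labelled knockout. Averaged over feeding states, 0 of 81 subunits passed (limma), none reached an unadjusted p under 0.05, and 0.00585% of all genes passed (1 gene), with 795 (4.65%) at an unadjusted p under 0.05. The median difference, knockout minus control, was -0.007, and 26 of 81 were above 0, against 49.4% of all genes. The 95% interval lay within 0.25 of no change for 76 of 81 subunits. By complex the median was -0.012 in complex I, -0.006 in complex II, 0.002 in complex III, -0.003 in complex IV and -0.005 in complex V, and it was -0.020 over the 7 Ndufaf genes. POMC neurons are a small share of the cells in this tissue, and how far a change confined to them would show in these values was not tested. The 8 choroid plexus markers, of a neighbouring secretory tissue, had a median difference of 1.27, knockout minus control, and all 8 were above 0. None passed, and 7 of 8 reached an unadjusted p under 0.05 (limma), against the 4.65% of all genes. In fed mice they summed to 45.06 to 61.67 in control and 46.72 to 68.43 in knockout arrays. In fasted mice they summed to 45.53 to 55.79 in control and 62.75 to 62.93 in knockout arrays. Their part in the subunit differences was not tested.

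Sdhd had the lowest genotype p of the subunits, at -0.11 ± 0.05 (95% interval -0.22 to 0.002, unadjusted p = 0.0541, adjusted p = 0.999, limma). Cox8b, a muscle isoform, was next, at 0.27 ± 0.13 (95% interval -0.01 to 0.54). It lay at 4.69, 4.04, 3.99 and 4.12 in control fed and at 4.34, 4.86, 4.44 and 4.92 in knockout fed arrays. In fasted mice it lay at 4.38, 4.52 and 4.04 in control and at 4.44, 4.41 and 4.40 in knockout arrays. All are under the background mark, and the groups overlapped. Cox6b2, known from testis, differed by 0.27 ± 0.14, with 5.03 and 6.11 in 2 arrays of the knockout fed group as its lowest and highest values. Ndufb8 differed by -0.06 ± 0.03, Cox6a2 by -0.13 ± 0.07 and Ndufaf2 by -0.11 ± 0.05. Uqcrb of complex III differed by -0.05 ± 0.04 and Atp5g2, a gene for the c subunit of the complex V membrane ring, by 0.04 ± 0.04. All of these had an adjusted p of 0.999 (limma).

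In fed mice 0 of 81 subunits passed, against 0.00585% of all genes, and 1 subunit, Cox8b, reached an unadjusted p under 0.05, as did 790 genes (4.62%). In fasted mice 0 of 81 passed, against 0% of all genes (limma). There 1 subunit, Ndufb7 at -0.12 ± 0.05, and 1 assembly factor, Ndufaf2 at -0.18 ± 0.08, reached an unadjusted p under 0.05, as did 661 genes (3.87%). Ndufb5 lies on chromosome 3 close to Mfn1, with 3 protein-coding genes between them, and a targeted locus can carry flanking alleles from its strain of origin. Its genotype difference was -0.01 ± 0.03 (95% interval -0.07 to 0.06). Ndufa9 shares chromosome 6 with Nrip2, a gene singled out in an earlier look at these arrays, with 18 protein-coding genes between, and its genotype difference was -0.01 ± 0.03.

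Other probe sets of the same genes allowed a check within the arrays. The 88 genes had 149 probe sets, 37 genes had more than 1 above the background mark, and 32 of the 46 further probe sets had the sign of the chosen one in the fasting contrast. The median gap between them was 0.034, and the largest 0.26. In a fit of every probe set (28898), 2 subunit probe sets passed in any contrast, and 2 of the 149 passed for averaged fasting. The share of all 28898 that passed is not given here, so neither count can be called few or many. In the fit over genes 10.0% passed for averaged fasting (limma).

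A few probe sets varied in steps, without passing for feeding or genotype. For Ndufv1, the subunit that binds NADH, the chosen probe set 1415967_PM_at had an SD of 0.057 over 14 arrays, and 1415966_PM_a_at an SD of 0.36. The latter lay between 9.71 and 9.94 in 8 arrays, at 10.20 and 10.23 in knockout fed 2 and 3, and between 10.47 and 10.70 in the other 4. For Ndufs5-ps, 1416494_PM_at had an SD of 0.29 and the chosen set 0.092. It lay between 9.76 and 9.86 in 5 arrays, all of them control, at 10.17 and 10.08 in knockout fed 2 and 3, and between 10.36 and 10.46 in the other 7, with a genotype difference of 0.35 ± 0.12 (adjusted p = 0.999, limma). For Uqcr10, 1434340_PM_at ranged from 4.96 in control fasted 2 to 8.81 in control fasted 1, and it was 6.51 and 6.34 in knockout fed 2 and 3. The chosen Uqcr10 set stayed between 10.78 and 10.97. The strains behind each array are not in the labels, and their part in the steps was not tested.

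**Figure D4:**
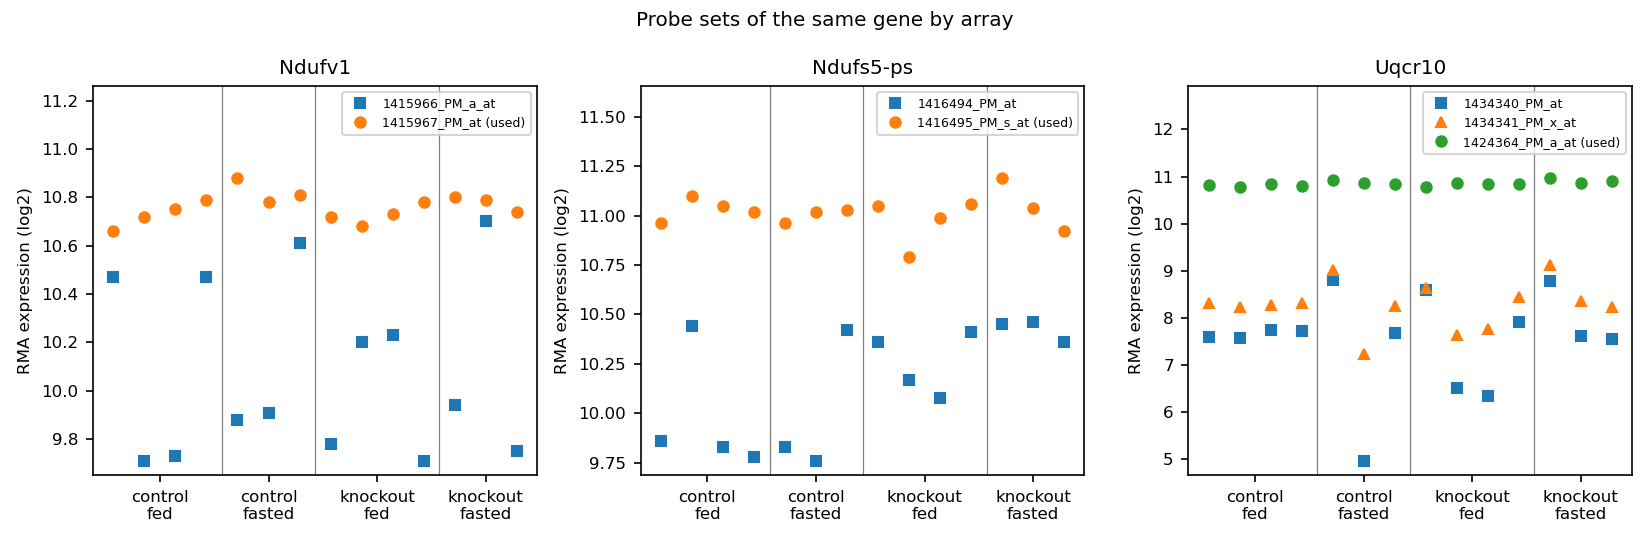
RMA expression on the log2 scale (vertical axis) of the probe sets of Ndufv1, Ndufs5-ps and Uqcr10 in each array, by group (horizontal axis). In each panel 1 probe set is flat and another falls into separate levels, with knockout fed 2 and 3 between them in 1415966_PM_a_at and 1416494_PM_at.

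Lists of genes around the respiratory chain were read in the same contrast, where 10.0% of all genes passed, and were not tested against the subunits. Of 19 measured genes of the tricarboxylic acid cycle and its entry, 3 rose with fasting and none fell, with a median of 0.021. Pdk4 and Pdk2, kinases that shut pyruvate dehydrogenase, rose by 1.08 ± 0.20 (adjusted p = 0.00501) and 0.39 ± 0.06 (adjusted p = 0.00193, limma), and Idh2, the mitochondrial NADP isocitrate dehydrogenase, by 0.46 ± 0.07 (adjusted p = 0.00193). Of 37 other assembly factors 1 rose and 3 fell, a share near the 10.0% of all genes, with a median of -0.020. Atpaf1, which assembles complex V, rose by 0.19 ± 0.04 (adjusted p = 0.0160, limma). Bcs1l, which inserts the Rieske protein into complex III, differed by -0.31 ± 0.05 (adjusted p = 0.00381), and Sdhaf3, an assembly factor of complex II, by -0.25 ± 0.06 (adjusted p = 0.0162). Sdhaf3 fell while Sdhc and Sdhd rose.

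Of 10 genes of ubiquinone synthesis and handling, 2 rose, Coq7 by 0.19 ± 0.04 (adjusted p = 0.0178) and Coq10a by 0.16 ± 0.04 (adjusted p = 0.0438, limma), with a median of 0.035. Of 73 mitochondrial ribosomal proteins, which translate the mitochondrially encoded subunits, 3 rose and 1 fell, with a median of 0.012. Mrpl2 differed by 0.21 ± 0.04, Mrpl41 by 0.19 ± 0.04 and Mrpl36 by -0.28 ± 0.07. Of 9 mobile carriers and adenine nucleotide exchangers 1 fell, the adenylate kinase Ak4, at -0.76 ± 0.13 (adjusted p = 0.00302, limma), with a median of 0.032.

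No gene passed among 21 biogenesis regulators (median -0.054), 17 genes of mitochondrial membrane shape (0.027), 6 supercomplex and respiratory modulators (-0.038) or 5 uncoupling genes (-0.089). In these lists an unadjusted p under 0.05 was reached by 9, 1, 2 and 2 genes (limma), against 26.0% of all genes. The lowest p of each list was that of Tfb1m (-0.31 ± 0.10), Fis1 (0.07 ± 0.03), Higd1a (0.12 ± 0.04) and Ucp3 (0.35 ± 0.13), with adjusted p-values of 0.0655, 0.171, 0.0696 and 0.104. In the averaged genotype contrast none of the genes of these lists passed.

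Over the 64 subunits with RefSeq promoter entries, 4 motifs of factors known to act on this pathway were counted, with no test. Windows reached across the gene start, 300 bases in all, on both strands. Of 69 such promoters, 28 (40.6%) held the NRF1 core motif, against 8.21% of all promoters of that length and 11.1% of those of protein-coding genes. The ETS motif was in 15 (21.7%), against 8.86% and 11.6%. The YY1 motif AAGATGGCG was in 7 (10.1%), against 1.40% and 1.83%. The motif of estrogen-related receptors, TCAAGGTCA, was in 2 (2.90%), against 0.423% and 0.334%. The 6 Ndufaf promoters held the NRF1 core in 3 (50.0%), the ETS motif in 2 (33.3%), the YY1 motif in 1 (16.7%) and the estrogen-related receptor motif in 0, and no difference from the subunits was tested. A match is a run of letters and not a measured site. The mRNAs of these factors gave fasting differences of -0.16 ± 0.08 for Nrf1, -0.17 ± 0.07 for Gabpa and -0.17 ± 0.07 for Yy1 (adjusted p = 0.196, 0.161 and 0.150, limma). The estrogen-related receptors gave 0.05 ± 0.05 for Esrra, 0.24 ± 0.10 for Esrrb and 0.20 ± 0.08 for Esrrg (adjusted p = 0.600, 0.131 and 0.116, limma). None passed, and all are named here after their values were seen.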

How the data were processed

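Expression was measured in 14 arrays from 150 ng of RNA each. The log2 values that the authors deposited come from RMA and affy (versions not given in the sources used here), as the submitters' processing notes state. RMA subtracts background, equalises the distribution of arrays and combines probes, which shrinks differences near background. Array medians lay between 4.98 and 5.05, and no further normalisation was applied. Of 45141 probe sets, 28898 named 1 gene in the platform annotation of 2016 and 551 named several, which were left out. All 88 members matched RefSeq (GRCm38.p6) by gene ID.

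Group means and 7 contrasts were fitted over all genes with limma 3.58.1 in R 4.3.3 (lmFit, eBayes, residual degrees of freedom 10, prior 3.27), two-sided, with Benjamini-Hochberg adjustment and a threshold of 0.05. Averaged contrasts weight both genotypes, or both feeding states, equally. Errors of log2 differences are SE of this fit. The background mark is the highest mean of 23 non-target control probe sets, whose median was 3.64. Members, lists and tests were chosen with earlier results of these data known. Named members were those that passed, in each complex the 3 with the lowest fasting p, the 1 with the lowest genotype p and the 1 with the highest SD, plus complex II, Cyc1, the tissue isoforms, Ndufb5 and Ndufa9; in each other list up to 3 that passed, otherwise the 1 with the lowest p. Ndufb7, Cox8c, Ndufv1, Ndufs5-ps and the motif-binding factors were named after their values were seen. On simulated data with 17097 genes the averaged fasting fit recovered 42% of genes changed by a log2 of 0.25 and 86% of those changed by 0.5, with 6 false calls. The changed genes, 100 of each size, were drawn from all genes. The median SD within groups was 0.119 over all genes and 0.044 over the subunits, so these shares do not describe the subunits. Alternatives covered filtering, probe set choice, scaling, the variance prior, array weights, covariates and leaving out arrays.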

Additional observations from a re-analysis of the deposited data

Results flagged for a closer look

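Of 84 groups of 4 arrays checked, 5 had a value far from the other 3, where chance gives about 1 in 20. Sdhd in control fed 1 was 6.34, and the other 3 arrays lay between 6.51 and 6.54. Sdhb in control fed 3 was 11.21, and the other 3 were at 11.24. Atp5mpl in control fed 4 was 10.98, and the other 3 were at 10.97, a gap equal to the rounding of the table. The complex I score in knockout fed 4 was 0.011, and the other 3 lay between -0.035 and -0.029. Ndufa4 in knockout fed 4 was 12.22, and the other 3 lay between 12.10 and 12.12.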

How the results depend on the processing

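Averaged fasting called 10.0% of all genes in the main fit and 12.5% with a trended and robust prior. Without the 40% of genes with the lowest mean, 20.1% of the remaining genes were called. The count of subunits called for averaged fasting, 2, was 6 with that filter and 9 with that prior (Sdhd not among them). It was 0 with the number series as a covariate, 0 with the 3' to 5' difference as a covariate, and 0 without control fed 1 and knockout fed 4, an alternative chosen after seeing the data. Leaving out 1 array gave 0 to 3: none without control fasted 3, knockout fasted 1 or knockout fasted 2, and 1 (Sdhc) without control fasted 1, control fasted 2, control fed 1 or knockout fed 3. In control mice the count of 0 became 2 with a trended and robust prior (Atp5j and Ndufb5), where 4.50% of all genes passed. It was 0 to 1 when 1 array was left out (Cox7b2 without control fed 3). The other 5 counts were 0 under all alternatives run.

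Medians of fasting differences moved with the number series as a covariate to 0.070 in complex III, 0.080 in complex IV and 0.015 in the Ndufaf genes, the latter also to 0.0033 without control fed 1 and knockout fed 4. The complex V median was 0.0056 when each gene took the average of its probe sets, 0.034 with arrays centred on their median and 0.0075 with quantile normalisation, and 0.0012 to 0.022 when 1 array was left out. For complex III that range was 0.012 to 0.035, for complex IV -0.0046 to 0.029, and for the Ndufaf genes -0.033 to -0.0092. The causes were not tested. Of the 22 alternatives not added later, Sdhc passed under 17 and Sdhd under 12, and neither changed sign. Over all 22, passed or not, the difference was 0.11 to 0.17 for Sdhc and 0.16 to 0.22 for Sdhd. Averaging a gene's probe sets left both differences unchanged, at 0.1546 and 0.1929, so that alternative could not test the choice of probe set for them. Signs of uncalled differences near 0 were not compared. No paired analysis was possible because all sample numbers in the titles differ.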
